A study of Mus musculus with 18 samples.

Results

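Igf2r and Airn are a pair of overlapping imprinted genes on mouse chromosome 17, taken here by gene symbol from the 31053 mouse genes counted in every library, so the members are 2 of 31053 genes. Their unique molecular identifiers (UMIs, counts of captured RNA molecules) were followed through 18 single-cell RNA-seq libraries, each prepared from a single embryo of stage E8.5 (10x Genomics 3' v3 kit). There were 7 wild-type embryos (WT), 3 embryos null for Dnmt1 (Dnmt1 KO), 4 null for Dnmt3a (Dnmt3a KO) and 4 null for Dnmt3b (Dnmt3b KO), all on the 129S4/SvJae strain background. Both copies of the named gene were mutated in every cell of a mutant, the parents were heterozygotes mated naturally, and genotypes had been read from the ecto-placental cone. Igf2r was counted with 1677 to 20712 UMIs per library and Airn with 516 to 4540, from 1366 to 12716 kept cells holding 36606912 to 233594354 UMIs in all.

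Igf2r encodes the cation-independent mannose 6-phosphate receptor, which takes IGF2 from the cell surface to lysosomes for breakdown and carries newly made lysosomal enzymes from the Golgi to endosomes. In mice the copy inherited from the mother is expressed in most tissues, while the paternal copy is silent. Airn is a long non-coding RNA that starts in the body of Igf2r, runs against it across the Igf2r promoter and is transcribed from the paternal copy. The Airn promoter carries DNA methylation on the maternal copy, laid down in the oocyte and copied at each cell division by DNMT1, and transcription of Airn silences Igf2r on the same chromosome. In the placenta the neighbours Slc22a2 and Slc22a3 are silenced on the paternal copy as well, and in neurons Airn is not made and both copies of Igf2r are active. DNMT3A and DNMT3B are the enzymes that set new methylation, DNMT3A also in the oocyte and both of them around implantation.

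In the GENCODE annotation of GRCm38 (the sequence of mm10), Igf2r (ENSMUSG00000023830) lies on the minus strand at chr17:12682406-12769664, with 48 exons in the transcript used here and 9308 exonic bases over all its transcripts. Airn (ENSMUSG00000078247), annotated as antisense, lies on the plus strand at chr17:12741311-12860136. The Airn start falls in intron 2 of Igf2r, 28.353 kb from the Igf2r start. The gene spans overlap by 28354 bp, 32.5% of Igf2r, but the exons of the pair share 0 bp, and the 10x 3' kit keeps strand, so a read can be given to one gene or the other. Exons make up 3597 bp of Airn, 3.03% of its span, in 6 annotated transcripts that all hold more than 1 exon. Counts that Cell Ranger makes by default, on annotated exons, leave out unspliced Airn outside them. The UMIs of Airn are therefore an index of its exonic RNA, and its level is not compared with that of Igf2r as an amount. No sequence difference between the parental copies was used, so all values are sums over both copies.

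The start regions of the pair are shown because DNMT1 acts on CpG sites and transcription leaves these regions in opposite directions. Each is the 250 bases before the transcription start in RefSeq (GRCm38.p6), read along the gene's own strand, with every CpG in capitals. Igf2r is chr17:12769707-12769956 on the minus strand and Airn is chr17:12741061-12741310 on the plus strand.
Igf2r: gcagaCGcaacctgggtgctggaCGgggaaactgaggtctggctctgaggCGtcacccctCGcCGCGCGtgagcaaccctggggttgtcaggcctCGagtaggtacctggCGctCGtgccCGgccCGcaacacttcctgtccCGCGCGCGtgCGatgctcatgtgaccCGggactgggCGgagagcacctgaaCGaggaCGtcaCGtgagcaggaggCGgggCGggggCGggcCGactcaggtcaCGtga
Airn: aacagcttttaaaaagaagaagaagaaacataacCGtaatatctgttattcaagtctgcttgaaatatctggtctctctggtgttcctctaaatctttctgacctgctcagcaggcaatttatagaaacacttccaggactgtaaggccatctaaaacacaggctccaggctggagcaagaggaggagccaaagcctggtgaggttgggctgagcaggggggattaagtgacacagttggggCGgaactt
The Igf2r window held 27 CpG sites with a GC content of 69.2%, and 8.56% of 32851 RefSeq promoter windows of this length held at least as many. The Airn window held 2 CpG sites with a GC content of 45.6%, as many as or fewer than 81.2% of windows, against a median of 6. The motif CACGTG, the same on both strands, occurred 2 times before Igf2r and 0 times before Airn, and was present in 6.02% of all windows. Both windows end before the start, and the sequence after the Airn start, within Igf2r, was not examined. These counts thus do not tell how many CpG sites the methylated region of the Airn promoter holds as a whole. Methylation itself was not measured in these libraries.

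Before the results, 4 facts of the libraries bear on them. Dnmt3b KO 1 and Dnmt3b KO 2 shared 12249 cell barcodes, 86.5% and 79.3% of their barcodes, against 133 in the next pair of libraries, so they were summed as 1 sample and Dnmt3b KO has n = 3. The Dnmt1 RNA was at 14.9 to 15.7 UMIs per 1000000 UMIs of the library (CPM) in Dnmt1 KO against 83.2 to 116 in WT, and Dnmt3a at 7.39 to 11.8 CPM in Dnmt3a KO against 23.1 to 34.9. Dnmt3b was not called as changed in Dnmt3b KO (log2 fold change 0.00, SE 0.18, adjusted p = 0.996 by edgeR), so its RNA does not check those labels, and in the libraries labelled Dnmt3b KO 11 and 12 Dnmt3a was at 15.02 and 7.56 CPM. All 3 Dnmt1 KO and all 4 Dnmt3a KO libraries but 1 of 7 WT libraries had Y-linked counts above 10 CPM, so sex moved with the mutant groups. Of the Dnmt3b KO libraries 3 were above it, and Dnmt3b KO 12 was at 0.012 CPM. That library is also the one with Dnmt3a at 7.56 CPM, within the Dnmt3a KO range, and the only one counted with Cell Ranger 5.0.0.

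Igf2r was lower in every Dnmt1 KO embryo than in any WT embryo, while Airn was higher in every Dnmt1 KO embryo than in any WT embryo. Igf2r stood at 24.9, 13.97 and 21.0 CPM in Dnmt1 KO 1, 2 and 3. In the 7 WT embryos it ranged from 59.6 to 87.1 CPM with a median of 69.0. The group means were 19.95 ± 5.53 CPM (SD, n = 3) and 73.4 ± 12.04 (SD, n = 7). The groups did not overlap, as for 27.3% of the 18763 genes tested in this comparison. The log2 fold change was -1.81 (SE 0.17, adjusted p = 4.71e-07, edgeR quasi-likelihood test over all genes), or 3.51-fold lower. It passed the call rule used throughout, an adjusted p under 0.01 together with a log2 change no smaller than 1 either way, which called 14.1% of all genes in Dnmt1 KO, 6.05% as lower and 8.09% as higher.

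Airn stood at 27.2, 16.4 and 22.4 CPM in Dnmt1 KO 1, 2 and 3, and at 10.4 to 14.1 CPM with a median of 12.7 in WT. The means were 21.99 ± 5.42 CPM (SD, n = 3) and 12.4 ± 1.302 (SD, n = 7). The log2 fold change was 0.89 (SE 0.14, adjusted p = 9.39e-05, edgeR). It passed the p threshold but fell short of the fold limit, so the whole-embryo change of Airn was not called. Without Dnmt1 KO 2, the embryo with the lowest level of both genes in that group, it was 1.05 and was called. With the Y-linked share as a covariate the changes were -1.83 for Igf2r and 0.81 for Airn, and both stayed under an adjusted p of 0.01. Only WT 2 and Dnmt3b KO 12 differed clearly in Y-linked counts from the rest of their group. The fit can therefore tell sex from genotype only through them.

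**Figure D1:**
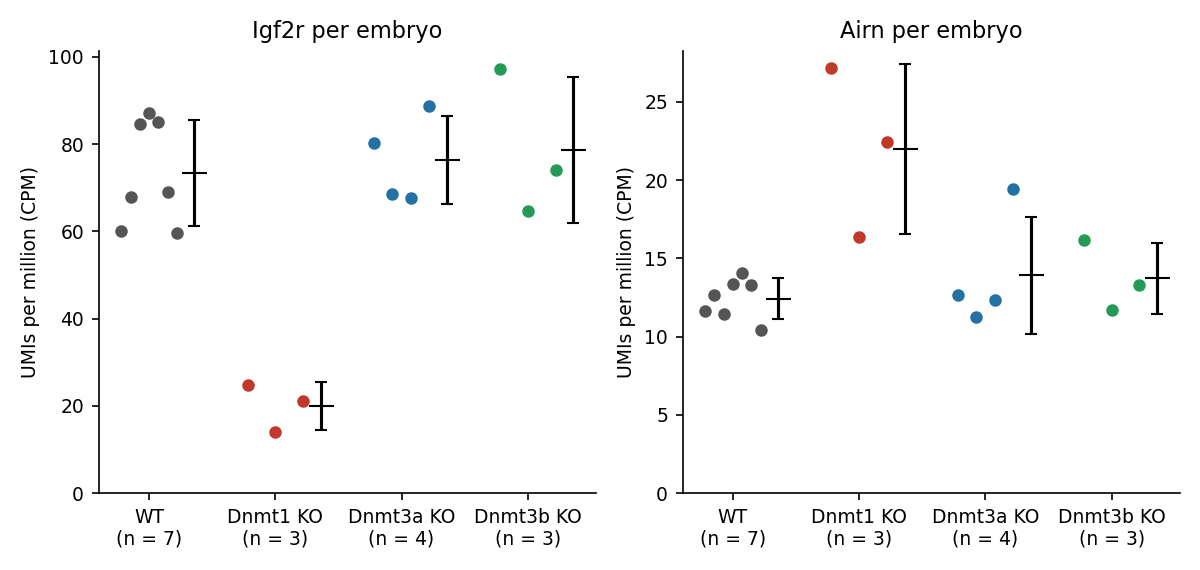
Igf2r (left) and Airn (right) in CPM (linear axis from 0) in each embryo by group, with the group mean and SD as a black bar beside the points; Dnmt3b KO 1 and 2 are 1 point. The 3 Dnmt1 KO embryos lie at 13.97 to 24.9 CPM for Igf2r, below all WT embryos, and at 16.4 to 27.2 CPM for Airn, above all WT embryos.

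In Dnmt3a KO, Igf2r was at 80.3, 68.6, 67.7 and 88.7 CPM in embryos 1, 2, 13 and 14. Airn was at 12.6, 11.2, 12.3 and 19.4 CPM in the same order. Dnmt3a KO 14 was highest for both genes, and the other 3 embryos lay within the WT range. The log2 fold changes were 0.04 for Igf2r (95% interval -0.23 to 0.31, adjusted p = 0.968) and 0.13 for Airn (95% interval -0.12 to 0.39, adjusted p = 0.803), both by edgeR in a comparison that called 0.219% of genes. In Dnmt3b KO, Igf2r was at 97.2 CPM in the summed embryo 1+2, 64.6 in 11 and 74.0 in 12. Airn was at 16.2, 11.7 and 13.3 CPM there. The log2 fold changes were 0.07 for Igf2r (95% interval -0.23 to 0.36, adjusted p = 0.860) and 0.11 for Airn (95% interval -0.17 to 0.39, adjusted p = 0.732), where edgeR called 1.82% of genes. Neither gene was thus called in either de novo methyltransferase mutant. Without Dnmt3b KO 11 and 12, the libraries low in Dnmt3a, the lone Dnmt3b KO sample was assumed to vary like the other groups and gave 0.33 for Igf2r and 0.30 for Airn (edgeR adjusted p = 1 for both).

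The difference between the mutants was tested in the same fit. Igf2r was lower in Dnmt1 KO than in Dnmt3a KO by 1.85 on the log2 scale (log2 difference -1.85, SE 0.18, adjusted p = 1.77e-06, edgeR) and than in Dnmt3b KO by a log2 difference of -1.88 (SE 0.19, adjusted p = 3.32e-06, edgeR); these contrasts called 13.3% and 8.67% of genes. The Airn differences were 0.76 (SE 0.16, adjusted p = 0.00142, edgeR) and 0.78 (SE 0.17, adjusted p = 0.00313, edgeR), under the fold limit. Dnmt3b KO minus Dnmt3a KO was 0.03 for Igf2r and -0.02 for Airn (edgeR adjusted p = 0.999 for both), where 0.213% of genes were called.

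The ratio of the pair within an embryo does not depend on the scaling between libraries. WT embryos held 13.5 to 19.3 Airn UMIs per 100 Igf2r UMIs (17.2 ± 2.16, SD, n = 7). The 3 Dnmt1 KO embryos held 109, 117 and 107 (111 ± 5.47, SD, n = 3). The embryos that differed most in the level of each gene, Dnmt1 KO 1 and 2, were thus close in their ratio. The log2 ratio was higher by 2.65 (exact two-sided permutation test, p = 0.00833, the smallest this design allows, adjusted p = 0.025 over 3 comparisons, higher in 3 of 3 embryos). Dnmt3a KO embryos held 15.7 to 21.9 (log2 difference 0.07, adjusted p = 0.767, exact permutation test) and Dnmt3b KO samples 16.6 to 18.1 (log2 difference 0.04, adjusted p = 0.767, exact permutation test). With a Dnmt1 KO embryo left out the difference was 2.61 to 2.68 and the adjusted p 0.0833, since 2 embryos against 7 cannot go lower.

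**Figure D2:**
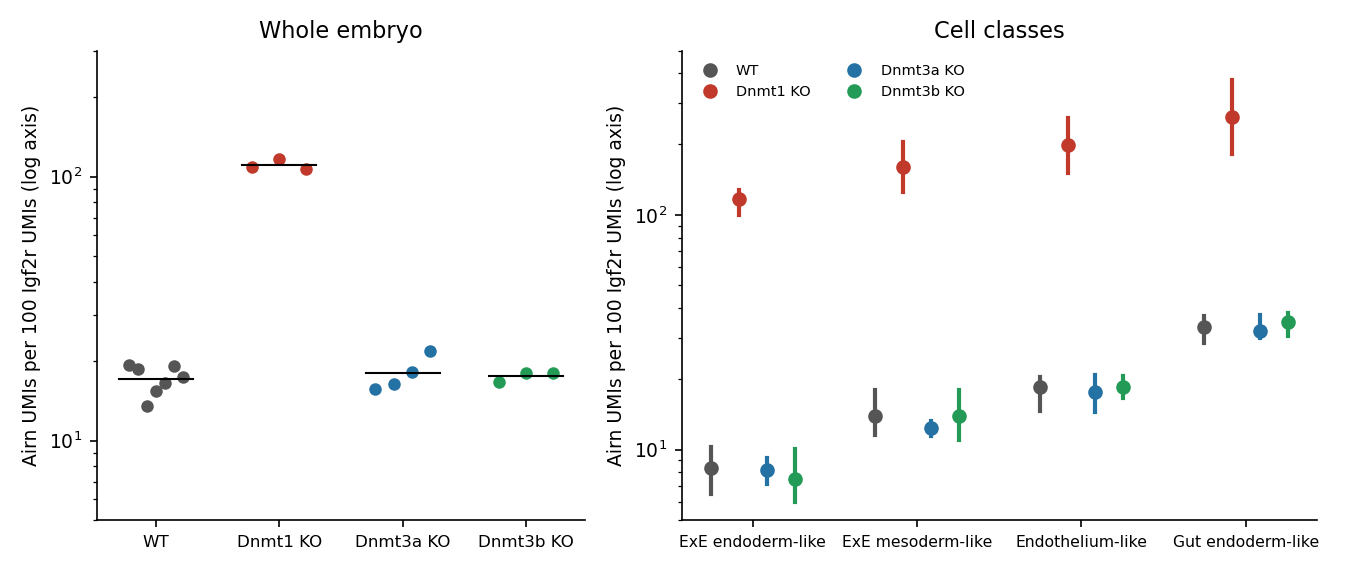
Airn UMIs per 100 Igf2r UMIs on a log axis, left for each whole embryo with the group mean as a line, right in 4 cell classes as the mean (point) and the range over embryos (line) of each group. Dnmt1 KO embryos lie at 107 to 117 against 13.5 to 19.3 in WT, and the Dnmt1 KO range lies above those of the other groups in all 4 classes.

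Cells were next grouped into classes rebuilt from the counts, each named "-like" after the marker genes that its clusters expressed, with Igf2r and Airn kept out of the clustering. In bulk sums and class sums alike, fewer cells that make an RNA and less RNA per cell cannot be told apart. In WT embryos Igf2r differed 28.4-fold between the 18 classes compared. It was highest in Allantois-like cells (289 ± 43.0 CPM, SD, n = 7) and Cardiomyocyte-like cells (269 ± 45.3), whose order was within the spread between embryos. ExE mesoderm-like cells followed at 164 ± 16.6 CPM, below Cardiomyocyte-like cells beyond that spread. Intermediate mesoderm-like, Gut endoderm-like, ExE endoderm-like (extra-embryonic), Surface ectoderm-like and Endothelium-like cells lay between 88.2 and 94.7 CPM and could not be ordered. Notochord-like (56.9 CPM), Pharyngeal mesoderm-like (44.2), Somitic mesoderm-like (37.3) and Presomitic mesoderm-like cells (32.7) were lower. The neural and axial progenitor classes, Neural crest-like, Neuromesodermal progenitor-like, Hindbrain and spinal cord-like and Forebrain and midbrain-like cells, lay at 22.1 to 23.5 CPM and could not be ordered among themselves. Immune-like cells were at 11.8 ± 3.04 CPM (SD, n = 4) and Erythroid-like cells at 10.2 ± 1.82 (SD, n = 7). Of the 17 pairs of neighbours in this order, 7 differed by more than the spread between embryos. A pair was counted so when its mean log2 difference within embryos exceeded the SD of that difference. The ranges of such classes can still overlap, as for Immune-like (7.77 to 14.7 CPM) and Erythroid-like cells (7.33 to 13.1 CPM).

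Airn differed 22.8-fold between the same classes. Cardiomyocyte-like cells were highest at 39.5 ± 6.78 CPM (SD, n = 7), above Gut endoderm-like cells at 30.3 ± 3.24 and Allantois-like cells at 24.4 ± 5.92, and both steps were beyond the spread between embryos. ExE mesoderm-like (22.6), Intermediate mesoderm-like (21.9) and Surface ectoderm-like cells (19.8) followed without a step beyond it. Somitic mesoderm-like (16.3), Endothelium-like (15.7), Pharyngeal mesoderm-like (12.8), Notochord-like (12.2) and Presomitic mesoderm-like cells (11.6) came next. ExE endoderm-like cells stood at 7.30 ± 1.22 CPM, although their Igf2r level was close to that of Gut endoderm-like cells. The lowest were Neuromesodermal progenitor-like (5.33), Erythroid-like (3.82), Neural crest-like (3.39), Hindbrain and spinal cord-like (2.25), Immune-like (2.19) and Forebrain and midbrain-like cells (1.74), none of which differed from its neighbour beyond the spread. In this order 5 of 17 neighbouring pairs differed by more than the spread. Over the 18 class means, which come from the same 7 libraries, the log2 levels of the pair had a Pearson r of 0.85 and a Spearman rho of 0.90.

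**Figure D3:**
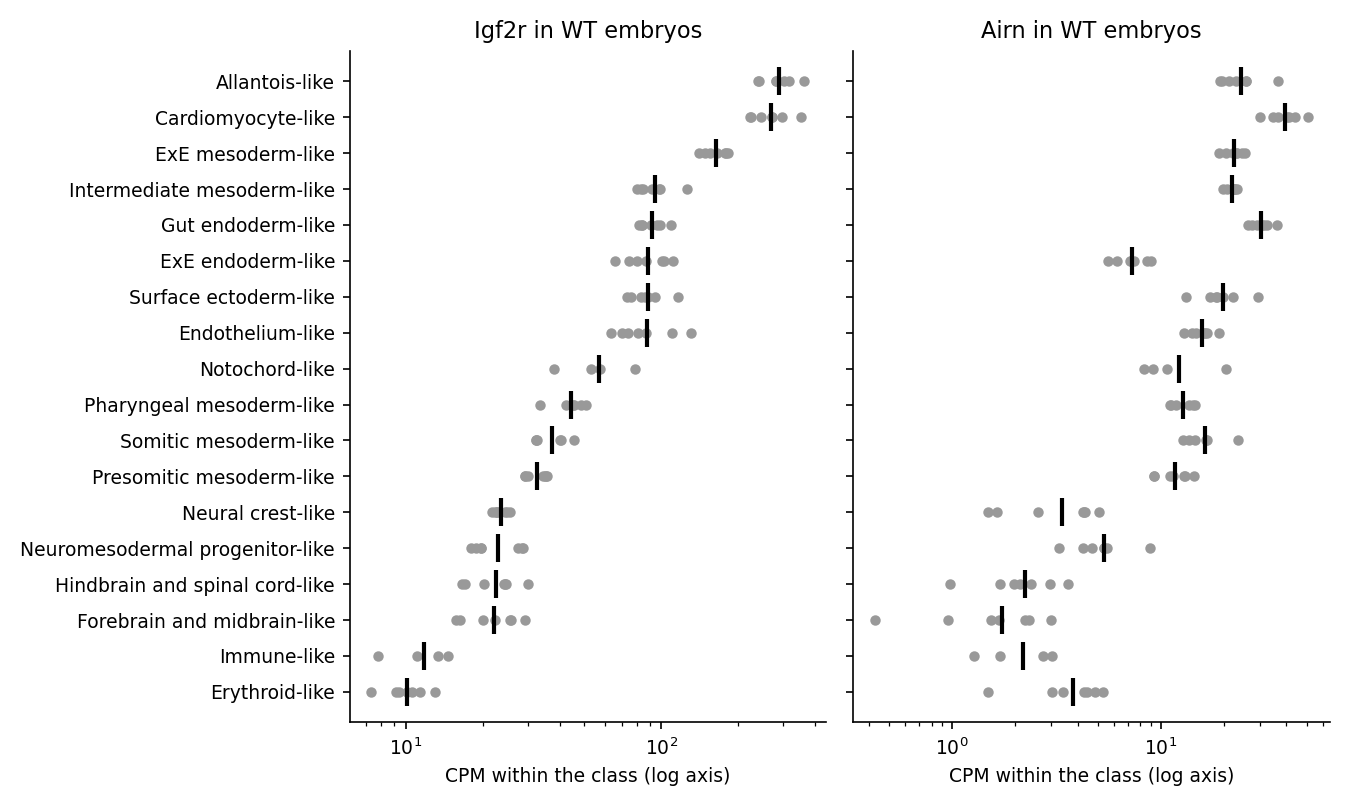
Igf2r (left) and Airn (right) in CPM within each cell class (log axis) in WT embryos; grey points are embryos with at least 25 cells of the class, and the black mark is their mean. Classes are in the order of the Igf2r mean, from Allantois-like (289 CPM) down to Erythroid-like (10.2 CPM); ExE endoderm-like cells have Airn at 7.30 CPM, under classes with a like Igf2r level.

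The Dnmt1 KO change could be tested in 5 classes, those with at least 25 cells in 3 embryos or more of both groups. Igf2r was called lower in 4 of the 5, and Airn was called higher in 4 of the 5. Igf2r in ExE endoderm-like cells, which hold the nutrient-transporting cells of the yolk sac, was at 15.9 to 25.9 CPM in the 3 Dnmt1 KO embryos and 65.7 to 111 in WT. The log2 fold change was -2.12 (SE 0.18, adjusted p = 1.13e-07, edgeR), where 1.89% of genes were called lower. In ExE mesoderm-like cells Igf2r was at 25.1 to 41.2 CPM against 141 to 183 (log2 fold change -2.14, SE 0.16, adjusted p = 7.66e-09, edgeR), where 4.23% of genes were called lower. In Endothelium-like cells it was at 18.0 to 18.7 CPM against 63.3 to 131 (log2 fold change -2.18, SE 0.26, adjusted p = 3.79e-06, edgeR), where 5.42% of genes were called lower. In Gut endoderm-like cells it was at 17.7 to 26.1 CPM against 81.8 to 109 (log2 fold change -1.90, SE 0.15, adjusted p = 1.78e-08, edgeR), where 3.17% of genes were called lower. The groups did not overlap in any of these 4 classes, as for 27.5%, 30.2%, 26.7% and 27.8% of the genes tested in ExE endoderm-like, ExE mesoderm-like, Endothelium-like and Gut endoderm-like cells.

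Airn in ExE endoderm-like cells rose from 5.57 to 8.997 CPM in WT to 19.3 to 25.9 CPM in Dnmt1 KO (log2 fold change 1.65, SE 0.15, adjusted p = 2.19e-07, edgeR), where 3.55% of genes were called higher. In ExE mesoderm-like cells it was at 48.8 to 60.7 CPM against 19.1 to 25.3 (log2 fold change 1.33, SE 0.09, adjusted p = 4.75e-09, edgeR), where 5.4% of genes were called higher. In Endothelium-like cells it was at 26.9 to 46.7 CPM against 12.9 to 19.1 (log2 fold change 1.25, SE 0.19, adjusted p = 4.58e-05, edgeR), where 3.77% of genes were called higher. In Gut endoderm-like cells it was at 47.6 to 66.5 CPM against 26.3 to 35.9, and its log2 fold change of 1.00 (SE 0.11, adjusted p = 1.17e-06, edgeR) fell just short of the fold limit before rounding, where 4.49% of genes were called higher; it was called in 10 of 18 fits that left out 1 library and in 6 of 10 other alternatives (0.83 to 1.13). The Airn ranges did not overlap in these 4 classes either, against the same shares of all genes, 26.7 to 30.2%. The mean ratio of Airn to 100 Igf2r UMIs went from 8.34 in WT to 116 in Dnmt1 KO in ExE endoderm-like cells, and from 13.9 to 159 in ExE mesoderm-like cells.

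In the fifth class, Immune-like cells, Igf2r was not called while Airn was. Its single cluster was led by Lyz2, Tyrobp, Fcer1g, Plek and Spi1, genes of myeloid cells. Igf2r was at 5.69 to 11.5 CPM in the 3 Dnmt1 KO embryos and 7.77 to 14.7 CPM in the 4 WT embryos with enough cells, and these ranges overlapped (log2 fold change -0.28, SE 0.30, adjusted p = 0.528, edgeR). Airn was at 12.2 to 12.7 CPM against 1.28 to 3.03 (log2 fold change 2.57, SE 0.39, adjusted p = 0.000352, edgeR), where 3.64% of genes were called higher and 2.76% lower, and 38.8% had groups that did not overlap. The WT values rest on 2 to 6 Airn UMIs per embryo, and the Dnmt1 KO values on 67 to 120. In this class 7 of the 8 immune markers were detected, and their summed level was 36.7 to 85.0 CPM in Dnmt1 KO against 182 to 340 in WT, while the 8 erythroid markers summed to 12949 to 13835 CPM against 6629 to 10583. The 8 endothelial markers summed to 411 to 646 CPM in Dnmt1 KO, above the immune markers, against 160 to 253 in WT, and the 7 megakaryocyte markers to 75.8 to 94.4 CPM against 130 to 511. In both groups the erythroid markers thus held the most RNA of these marker sets. The Dnmt1 KO cells of this class also held more RNA of endothelial markers than of the markers it is named for. The part of these markers in the result was not tested. By the nearest WT cells, a grouping described below, Dnmt1 KO 1, 2 and 3 held 43, 101 and 52 cells of this class, against 110, 237 and 112 here. The test of whether the Igf2r change differed between Immune-like cells and the other 4 classes gave a log2 difference of 1.65 (exact two-sided permutation test, p = 0.0286, the smallest possible with 4 against 3 embryos, adjusted p = 0.271 over 76 tests). The same p was reached in Gut endoderm-like cells, at -0.32 for Igf2r and -0.72 for Airn against the other 4 classes. These include Immune-like cells, and the Igf2r value was also negative in Endothelium-like (-0.32), ExE endoderm-like (-0.38) and ExE mesoderm-like cells (-0.63). In Dnmt3a KO it was reached by Igf2r in Somitic mesoderm-like cells (0.18) and by Airn in Cardiomyocyte-like (0.27) and Presomitic mesoderm-like cells (0.52). In Dnmt3b KO it was reached by Igf2r in Presomitic mesoderm-like cells (-0.34) and by Airn in Immune-like cells (0.96). With 76 tests, one at the smallest p of this design cannot pass the adjustment on its own, so these adjusted values say nothing about whether the classes differ.

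**Figure D4:**
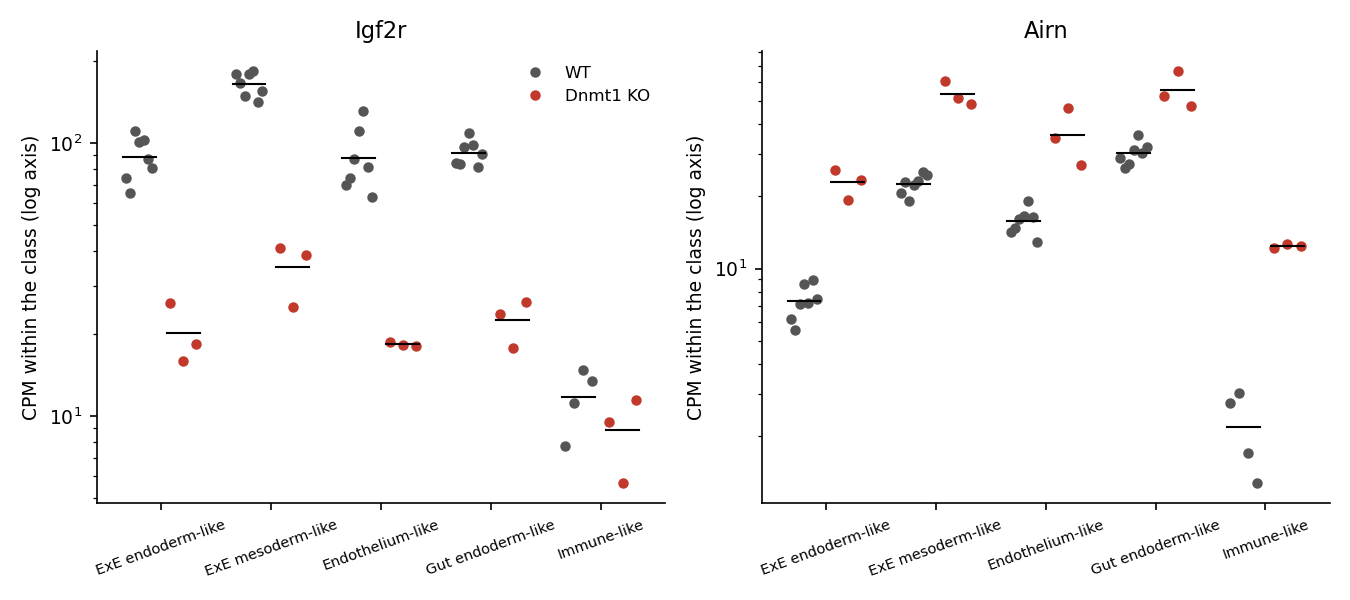
Igf2r (left) and Airn (right) in CPM within 5 cell classes (log axis), grey points for WT embryos and red points for Dnmt1 KO embryos, with the mean as a line. Igf2r is lower in Dnmt1 KO without overlap in 4 classes and overlaps in Immune-like cells; Airn is higher without overlap in all 5, where 26.7 to 38.8% of all genes tested do not overlap.

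The cells of the 2 groups did not always fall in the same clusters of a class. In ExE mesoderm-like cells, cluster 19 held 88.0% of the Dnmt1 KO cells, whereas WT cells were spread over clusters 22 (42.2%), 32 (28.5%) and 34 (27.9%). In ExE endoderm-like cells, cluster 11 held 70.0% of the Dnmt1 KO cells, and WT cells were in clusters 0 (49.4%) and 2 (50.4%). In Endothelium-like and Gut endoderm-like cells most cells of both groups were in 1 shared cluster, cluster 13 (75.8% and 52.5%) and cluster 3 (90.0% and 75.8%), and the Igf2r changes given above for these classes were -2.18 and -1.90. The markers that name a class moved as well. They summed to 544 to 913 CPM in Dnmt1 KO against 1226 to 1657 in WT in Endothelium-like cells (8 markers), and to 5199 to 6855 CPM against 1183 to 2480 in Gut endoderm-like cells (7 markers). In ExE mesoderm-like cells they were at 1769 to 2385 CPM against 3092 to 4224 (7 markers), and in ExE endoderm-like cells at 22869 to 27903 CPM against 32522 to 46851 (8 markers). The part of these shifts in the changes of Igf2r and Airn was not tested. The share of a class in the embryo also moved: ExE mesoderm-like cells made up 13.4 ± 4.66% of Dnmt1 KO cells (SD, n = 3) and 4.43 ± 0.77% of WT cells (SD, n = 7). ExE ectoderm-like cells made up 13.7 ± 15.1% against 0.26 ± 0.66%, with 31.1% in Dnmt1 KO 2. Allantois-like cells made up 0.16 ± 0.17% against 3.11 ± 1.69%, and Cardiomyocyte-like cells 0.07 ± 0.12% against 2.25 ± 0.54%. Cells without a class name made up 36.5 ± 20.4% against 14.1 ± 3.35%, and up to 59.0% of a Dnmt1 KO library. When the 4 classes whose clusters are given above had the same weight in every embryo, and the other classes none, Igf2r was still lower by a log2 difference of -2.15 and Airn higher by 1.21 (exact two-sided permutation test, p = 0.00833, adjusted p = 0.025 over 6 comparisons for both, 3 of 3 embryos beyond every WT embryo, where 26.7 to 30.2% of genes tested in the single classes did not overlap). The same average gave -0.02 and 0.16 in Dnmt3a KO over 14 classes and -0.18 and -0.06 in Dnmt3b KO over 13 classes, with adjusted p of 0.509 to 0.830 by the exact permutation test.

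A further class, ExE ectoderm-like cells of the trophoblast, had enough cells in the 3 Dnmt1 KO embryos but only in WT 2 among the wild types, so no test was made. Igf2r was at 9.05 to 10.2 CPM in the Dnmt1 KO embryos and 33.9 in WT 2, and Airn at 4.22 to 5.93 CPM and 1.66, the latter from 5 UMIs. Most embryonic classes held too few Dnmt1 KO cells to be compared.

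To reach them, each cell was also given the class of its nearest WT cells, a choice made after the data were seen. This gave 11 classes, of which Igf2r was called lower in 7 and Airn called higher in 4. The 7 held the 4 classes called above, but the 4 for Airn held only 3 of them: in Endothelium-like cells Airn was at 26.5 ± 1.59 CPM (SD, n = 3) against 15.7 ± 2.12 (SD, n = 7) and under the fold limit (log2 fold change 0.88, SE 0.16, adjusted p = 0.000331, edgeR), and Erythroid-like cells were added. In the added classes Igf2r was lower in Surface ectoderm-like cells (log2 fold change -1.88, SE 0.15, adjusted p = 1.72e-08, edgeR), where it fell from 88.8 ± 15.6 CPM (SD, n = 7) to 21.3 ± 2.51 (SD, n = 3), but Airn in the same cells was not called (16.2 ± 5.94 against 19.8 ± 5.67 CPM, log2 fold change -0.16, SE 0.23, adjusted p = 0.645, edgeR). In Intermediate mesoderm-like cells Igf2r was lower (log2 fold change -1.68, SE 0.17, adjusted p = 3.65e-07, edgeR) and Airn passed the p threshold just under the fold limit (log2 fold change 0.98, SE 0.10, adjusted p = 7.81e-07, edgeR). In Erythroid-like cells both passed, at log2 fold changes of -1.04 for Igf2r (SE 0.27, adjusted p = 0.00724, edgeR) and 1.15 for Airn (SE 0.24, adjusted p = 0.00141, edgeR). The Dnmt1 KO values there rest on 8 to 17 Igf2r UMIs and 15 to 32 Airn UMIs per embryo. In Hindbrain and spinal cord-like and Neuromesodermal progenitor-like cells neither gene was called: Igf2r differed by -0.48 in the former (adjusted p = 0.0774, edgeR) and by -0.43 in the latter (adjusted p = 0.136, edgeR), and Airn by -0.61 and -0.60 there (adjusted p = 0.435 and 0.219, edgeR). The Airn values of the Dnmt1 KO embryos rest on 2 to 8 UMIs in the former and 9 to 15 in the latter. In Presomitic mesoderm-like cells Igf2r was lower by less than the fold limit (log2 fold change -0.84, SE 0.17, adjusted p = 0.00202, edgeR), and Airn was not called (12.6 against 11.7 CPM, log2 fold change 0.16, SE 0.22, adjusted p = 0.654, edgeR). Over these 11 classes 2.93% of gene tests were called lower and 4.56% higher. By clustering, Intermediate mesoderm-like cells held 0% of Dnmt1 KO cells, and cluster 37, with 20 cells, was 74.1% of the Dnmt1 KO Surface ectoderm-like cells. Here Dnmt1 KO 1, 2 and 3 held 96, 129 and 195 cells of the former class and 109, 104 and 127 of the latter. Hindbrain and spinal cord-like, Neuromesodermal progenitor-like and Presomitic mesoderm-like cells held means of 0.024%, 0.24% and 0.089% of Dnmt1 KO cells by clustering. Here they held 79 to 130, 47 to 94 and 33 to 59 cells per Dnmt1 KO embryo. Erythroid-like cells held 51, 79 and 127 here, while a cluster of 77 cells was 80.2% of that class by clustering. Most Dnmt1 KO cells of these 6 classes had thus not been given that class by clustering. The part of this in the changes of Igf2r and Airn was not tested.

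In the de novo mutants neither gene was called in any class, out of 18 classes in Dnmt3a KO and 16 in Dnmt3b KO, where 0.107% and 0.681% of gene tests over these classes were called. In Dnmt3a KO the log2 fold changes of Igf2r lay between -0.25 and 0.28 and those of Airn between -0.40 and 0.81. In Dnmt3b KO they lay between -0.38 and 0.52 and between -0.41 and 1.03. The common direction of these small changes was not stable: Igf2r was lower in 14 of 16 classes of Dnmt3b KO (median -0.16), but higher in 13 of 16 without Dnmt3b KO 11 and 12 (median 0.12). The lowest adjusted p was 0.226 for Igf2r and 0.348 for Airn (edgeR). An unadjusted p under 0.05 was reached by Igf2r in 1 class of Dnmt3a KO and 2 of Dnmt3b KO, and by Airn in 2 and 1, and DESeq2 called 0 classes. The shares of all gene tests over the classes that met these rules are not given here, so these counts have no background.

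The shares of cells with a UMI moved the same way. Cells were thinned to 3000 UMIs each, and cells with fewer were left out, 3977 of 34421 in WT and 1000 of 7068 in Dnmt1 KO (at most 28.7% of a library in these groups). At least 1 Igf2r UMI was seen in 16.4 ± 2.68% of WT cells (SD, n = 7) and 5.30 ± 1.97% of Dnmt1 KO cells (SD, n = 3), and at least 1 Airn UMI in 3.39 ± 0.50% and 6.05 ± 1.02% (exact two-sided permutation test, p = 0.00833, adjusted p = 0.025 over 6 comparisons for both genes). Without thinning, 32.8 to 64.9% of WT cells and 29.3 to 62.9% of Dnmt1 KO cells held an Igf2r UMI, in libraries whose median depth per cell ran from 6793 to 57682 and from 7668 to 59714 UMIs. Of the WT classes, Erythroid-like cells had the lowest mean Igf2r level: 2.03 to 5.96% of thinned WT Erythroid-like cells held an Igf2r UMI and 0 to 2.04% an Airn UMI. The Igf2r share of the 3 Dnmt1 KO embryos, 3.69 to 7.49% over all cells, overlapped that range. How much of the Erythroid-like share is free RNA was not tested. In WT embryos 29.7 ± 7.10% of cells with an Airn UMI also held an Igf2r UMI, against 16.0 ± 2.67% of the other cells (SD, n = 7). In Dnmt1 KO these shares were 7.07 ± 1.83% and 5.20 ± 2.01% (SD, n = 3). They pool all classes, over which the levels of the pair rose and fell together in WT (Pearson r of 0.85). They therefore do not show a link of the pair within a cell, which was not tested.

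Within the chromosome region, the genes on either side of the pair were read from a list of 15 neighbours. In Dnmt1 KO 3 were called lower and 0 higher (background 6.05% and 8.09%), with a median log2 fold change of -0.23 over the 15 against 0.01 over all genes tested. The 3 called neighbours were Slc22a3, Slc22a2 and Mas1. Slc22a2 and Slc22a3, which encode organic cation transporters, start 157 and 234 kb from the Airn start. Slc22a2 had 20 to 40 UMIs in the Dnmt1 KO libraries and 59 to 855 in WT, or 0.15 to 0.38 CPM against 0.99 to 3.796 (log2 fold change -3.08, SE 0.43, adjusted p = 3.17e-05, edgeR). Slc22a3 had 4, 0 and 0 UMIs in the Dnmt1 KO libraries and 21 to 128 in WT. Against a floor of 3 UMIs per library its mean was at least 15.7-fold lower than the WT mean of 0.52 CPM (edgeR adjusted p = 3.76e-06). Mas1, which encodes an angiotensin-peptide receptor and lies partly under the Airn end on the other strand, with 0 bp of shared exons, had 8 to 14 UMIs against 15 to 79, or 0.08 to 0.13 CPM against 0.21 to 0.41 (log2 fold change -1.47, SE 0.26, adjusted p = 0.000268, edgeR). No exon bases of these 3 genes are shared with another gene on the same strand.

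The fall of Slc22a2 was also seen within a class, ExE endoderm-like cells. There 70.0% of Dnmt1 KO cells but 0.27% of WT cells were in cluster 11, and the part of this in the fall was not tested. In these cells, where Slc22a2 was most counted, it went from 15.02 ± 4.48 CPM in WT (SD, n = 7) to 1.07 ± 0.74 in Dnmt1 KO (SD, n = 3), which is -4.21 on the log2 scale (SE 0.40, adjusted p = 4.72e-07, edgeR). In the same cells Slc22a3 was called lower with 1 UMI in all Dnmt1 KO cells against 77 in WT, and Mas1 with 13 against 196 (log2 fold change -2.73, SE 0.47, adjusted p = 0.000375, edgeR). The other 12 neighbours were not called in Dnmt1 KO; those named next were chosen after their values were seen. The well-expressed neighbours on the Mas1 side, Tcp1 (444 against 448 CPM), Mrpl18 (288 against 330 CPM) and Wtap (70.4 against 79.1 CPM), had log2 fold changes of 0.06, -0.13 and -0.10 and were not called. Acat2 was lower by less than the fold limit (28.5 against 52.6 CPM, log2 fold change -0.81, SE 0.11, adjusted p = 1.58e-05, edgeR).

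**Figure D5:**
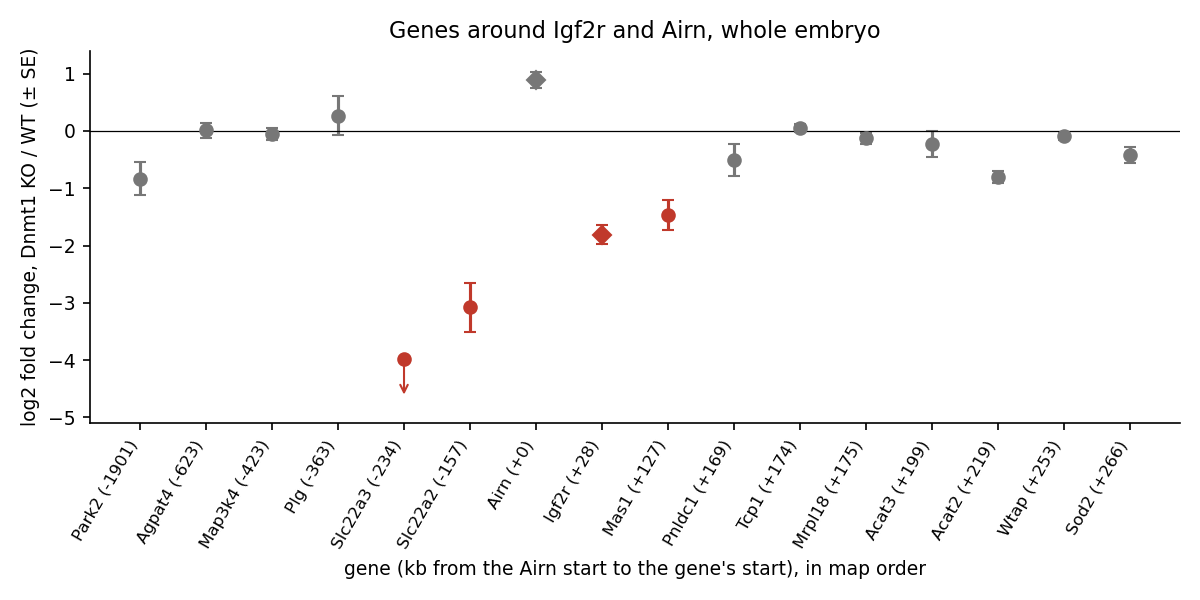
log2 fold change in Dnmt1 KO over WT (whole embryo, edgeR, bars are SE) of 14 listed neighbours (circles) and of Igf2r and Airn (diamonds) in the order of their starts, with the distance from the Airn start in kb in each label; red marks genes that were called. Slc22a3, with 4 UMIs over the Dnmt1 KO libraries, is drawn at its bound (at least 15.7-fold lower) with an arrow and no SE. Igf2r (-1.81), Mas1 (-1.47) and Slc22a2 (-3.08) are also called lower and Airn is at 0.89.

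In Dnmt3a KO 0 of the 15 neighbours were called by edgeR (background 0.219%), with 3 at an unadjusted p under 0.05 (9.54% of all genes) and 1 called by DESeq2 (background 0.624%). In Dnmt3b KO 1 was called (background 1.82%), Pnldc1, an exonuclease that trims piRNAs, at 1.38 CPM against 0.42 in WT (log2 fold change 1.66, SE 0.24, adjusted p = 0.000324, edgeR); it starts 169 kb from the Airn start. DESeq2 called 2 neighbours there (background 2.3%), and 7 of the 15 had an unadjusted p under 0.05 by edgeR (18.0% of all genes), against 6 in Dnmt1 KO (46.0% of all genes). In Dnmt3a KO its log2 fold change was 1.06 with an adjusted p of 0.0450 (edgeR).

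The ligand side of the receptor was read from 17 genes of IGF ligands, receptors and carriers. In Dnmt1 KO 3 were called lower and 1 higher, with a median log2 fold change of -0.40 (background 6.05% and 8.09%, median 0.01 over all genes tested). These are sums over the whole embryo, in which the shares of the cell classes also moved, as given above. The part of those shares in the changes of these genes was not tested. Igf2, the growth factor that IGF2R clears, was at 0.93 ± 0.81 CPM (SD, n = 3) against 9.26 ± 1.78 in WT (SD, n = 7; log2 fold change -3.21, SE 0.43, adjusted p = 2.11e-05, edgeR). Its UMIs in Dnmt1 KO 1, 2 and 3 were 47, 246 and 38, and without Dnmt1 KO 2 the mean was 0.46 CPM and the log2 fold change -4.27 (adjusted p = 1.06e-06, edgeR). Its level is uncertain, since 62.8% of its exon bases are shared with Gm49394 on the same strand and reads that match both genes are not counted for either. Igfbp5 (log2 fold change -1.62, adjusted p = 0.000129, edgeR) and Igfbp3 (-1.59, adjusted p = 2.62e-06, edgeR), which bind IGFs outside the cell, were lower, and Igfbp1, another binding protein, was higher at 7.65 ± 4.67 CPM against 1.36 ± 0.59 (log2 fold change 2.55, adjusted p = 0.000145, edgeR), or a mean of 5.08 CPM without Dnmt1 KO 1 (log2 fold change 1.997, adjusted p = 0.00301, edgeR). In Dnmt3a KO and Dnmt3b KO 0 of 17 were called by edgeR or DESeq2 (background 0.219% and 1.82% by edgeR), with 1 and 2 at an unadjusted p under 0.05 (9.54% and 18.0% of all genes).

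The genes that act with the receptor in enzyme transport did not move past the call rule. The shares of all genes called by edgeR were 14.1%, 0.219% and 1.82% for Dnmt1, Dnmt3a and Dnmt3b KO, and 46.0%, 9.54% and 18.0% had an unadjusted p under 0.05, so a count of 0 in the latter pair is close to the background. Of 14 genes for the mannose 6-phosphate tag and its sorting, 0 were called in any mutant by edgeR or DESeq2, with a median of 0.36 in Dnmt1 KO, where 10 had an unadjusted p under 0.05 (0 in Dnmt3a KO, 1 in Dnmt3b KO). The most expressed were Vps29 and Vps35, subunits of the retromer that returns the receptor from endosomes; Vps35 was at 193 against 141 CPM (log2 fold change 0.52, SE 0.12, adjusted p = 0.00338, edgeR), past the p threshold but under the fold limit. Of 19 lysosomal enzymes that the receptor carries, 0 were called in any mutant by edgeR or DESeq2, with a median of 0.30 in Dnmt1 KO, where 8 had an unadjusted p under 0.05 (0 in Dnmt3a KO, 2 in Dnmt3b KO); the most expressed, the cathepsins Ctsl and Ctsz, had log2 fold changes of 0.51 (adjusted p = 0.193, edgeR) and 0.55 (adjusted p = 0.118, edgeR). Of 13 chromatin proteins linked to silencing by Airn, 0 were called in any mutant by edgeR or DESeq2, with a median of -0.04 in Dnmt1 KO, where 3 had an unadjusted p under 0.05, as in Dnmt3a KO and Dnmt3b KO; the most expressed were the RNA-binding proteins Hnrnpu (log2 fold change -0.16, adjusted p = 0.362, edgeR) and Hnrnpk (-0.22, adjusted p = 0.0673, edgeR).

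Among all genes that passed the low-count filter, those whose log2 levels followed Igf2r most closely over the 17 samples were Sorbs2 (Pearson r = 0.98), Mat2b (0.97), Ankrd1 (0.97), Dnmt1 (0.97) and the imprinted gene Grb10 (0.97), and the most opposed were Akr1c21 (-0.97) and Gm7762 (-0.96). These samples include the Dnmt1 KO group, and over the 14 samples without it the r values were 0.81, 0.50, 0.58, 0.81 and 0.79, and -0.40 and -0.24. For Airn they were the imprinted gene Peg3 (0.89), Mc2r (0.88), Sik3 (0.88), Map3k15 (0.88) and Herc1 (0.88), with Psmb10 (-0.84) and Pdcd5 (-0.83) at the other end, and without Dnmt1 KO the r values were 0.83, 0.72, 0.78, 0.61 and 0.80, and -0.74 and -0.55. Over the 18 WT class means Igf2r was most like Papd4 (0.94), Gata6 (0.93), Ugp2 (0.93), Smad6 (0.92) and Stard3nl (0.91), and Airn most like Rb1cc1 (0.92), Mum1l1 (0.89), Peg3 (0.89) and Zfp9 (0.88). All points of each set share libraries and depth, and these values are descriptions of likeness only.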

How the data were processed

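Single-cell RNA-seq of 18 libraries was analysed. The authors aligned reads to mm10 with Cell Ranger (3.1.0 in 17 libraries and 5.0.0 in 1 per the file headers; the study's methods name 5.0.0 alone) and deposited raw UMI counts per gene and barcode; the reference held human and mouse genes for 4 libraries and mouse genes alone for 14. Barcodes with at least 1500 mouse UMIs, at most 30% mitochondrial and 35% ribosomal protein UMIs were kept and the likeliest doublets by Scrublet score removed (6.72% of barcodes that passed), which left 109962 of 128881 barcodes with 1500 UMIs. Dnmt3b KO 1 and 2 were summed, giving 17 samples. Cells were clustered without Igf2r, Airn and the listed genes (scanpy 1.11.5, 2500 variable genes, 50 components, 30 neighbours, Leiden resolution 2), and 35 of 45 clusters were named by marker genes into 19 classes. UMIs were summed per embryo, and per embryo and class with at least 25 cells in at least 3 embryos of each group.

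Sums were tested with edgeR 4.0.16 in R 4.3.3 (low-count filter, TMM scaling, quasi-likelihood test, 1 fit over the 4 groups, Benjamini-Hochberg adjustment over all genes of the fit). Calls required an adjusted p below 0.01 and a log2 change of 1 or more in size. Single values per embryo were compared by exact two-sided permutation tests (threshold 0.05 after adjustment) on log2(CPM + 0.5) where a log was taken. The edgeR step was tested on simulated counts. The labels do not tie embryos to litters, so p-values measure the spread between these embryos. Intervals cover 95%. The 2 genes and the gene lists were chosen with earlier results of these data known. Of each list, the genes called in any mutant were named, at most 6 by size, or else the 2 most expressed in WT; likeness named the 5 highest and 2 lowest correlations. 1 gene that these rules name is not reported here. DESeq2 1.42.0, other scalings and filters, thinning, covariates for Y-linked counts and counting reference, and leaving out each library were tried. Same-numbered embryos did not deviate together (13 pairs, correlation of deviations -0.33 to 0.36), so numbers were not used as a block.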

Additional observations from a re-analysis of the deposited data

Results flagged for a closer look

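Of 84 sets of at least 4 embryos examined, 8 held an embryo far from the others by Dixon's criterion, which chance gives in about 1 set in 20. Dnmt3a KO 14 stood apart in 3 of them: Airn was at 19.4 CPM over the whole embryo against 12.6 in the next Dnmt3a KO embryo, Airn in Surface ectoderm-like cells was at 31.8 CPM against 21.3, and Igf2r in Pharyngeal mesoderm-like cells was at 69.7 CPM against 51.4. Without Dnmt3a KO 14 the log2 ratio of Airn to Igf2r in Dnmt3a KO differed from WT by -0.023. In WT 5, Airn was at 36.5 CPM in Allantois-like cells (next 25.6) and Igf2r at 126 CPM in Intermediate mesoderm-like cells (next 99.0). In WT 2, Airn was at 8.91 CPM in Neuromesodermal progenitor-like cells (next 5.54) and at 23.6 CPM in Somitic mesoderm-like cells (next 16.7). In WT 4, 44.6% of the thinned cells with an Airn UMI also held an Igf2r UMI (next 30.8%).

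The difference between mutants passed the p threshold for both genes, but only that of Igf2r was called, since the Airn differences were under the fold limit. Dnmt1 KO minus Dnmt3a KO was -1.85 for Igf2r (adjusted p = 1.77e-06, edgeR) and 0.76 for Airn (adjusted p = 0.00142, edgeR) on the log2 scale. Dnmt1 KO minus Dnmt3b KO was -1.88 for Igf2r (adjusted p = 3.32e-06, edgeR) and 0.78 for Airn (adjusted p = 0.00313, edgeR).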

How the results depend on the processing

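Of 1145 alternative values, 1091 kept their direction and side of the threshold, and for Dnmt1 KO 669 of 699 did and 0 changed direction. These counts include fits that left out a library of a group outside the comparison. Such a library cannot change the ratio difference between the compared groups. In edgeR it acts only through the filter, scaling and spread of the joint fit. Part of this agreement was thus fixed in advance. Igf2r over the whole embryo was called in Dnmt1 KO in all 28 alternatives (-1.97 to -1.62). Airn over the whole embryo lay at 0.74 to 1.05 when 1 library was left out and was called in 1 alternative of 28, without Dnmt1 KO 2. Leaving out 1 library gave the log2 ratio of Airn to Igf2r as 2.60 to 2.68 in Dnmt1 KO (adjusted p = 0.0833 by the exact permutation test without a Dnmt1 KO embryo, the least that design allows), -0.023 to 0.13 in Dnmt3a KO and -0.016 to 0.069 in Dnmt3b KO. It gave the class-averaged Igf2r change as -2.24 to -2.01 in Dnmt1 KO, -0.11 to 0.047 in Dnmt3a KO and -0.21 to -0.078 in Dnmt3b KO, and that of Airn as 1.16 to 1.29 in Dnmt1 KO, -0.0017 to 0.27 in Dnmt3a KO and -0.096 to 0.016 in Dnmt3b KO. It gave Igf2r in Dnmt3a KO as -0.011 to 0.087 over the whole embryo, and Dnmt3b KO minus Dnmt3a KO as -0.015 to 0.12 for Igf2r and -0.093 to 0.10 for Airn. The number of classes called in Dnmt1 KO (4 for each gene) was 2 for Igf2r and 2 for Airn with at least 50 cells per embryo, and 7 for Igf2r with classes from the nearest WT cells, an alternative chosen after the data were seen, in which 3 of the 4 Airn calls were shared; the classes tested differ by construction. It was 5 for Airn in 10 of 18 fits without 1 library and in 6 of 11 other alternatives, DESeq2 among them. Small differences changed sign: Airn in Dnmt3a KO was -0.064 with a replicate block, the share of cells with an Airn UMI in Dnmt3a KO was -0.035 percentage points from WT when thinned to 1500 UMIs, Dnmt3b KO minus Dnmt3a KO for Igf2r was -0.0012 with the counting reference as a covariate, and for Airn 0.032 with Dnmt3b KO 1 and 2 kept separate, 0.0099 with the Y-linked covariate and 0.35 with a replicate block; the cause was not tested. With the replicate block Igf2r was higher in 16 of 18 classes of Dnmt3b KO (median 0.18; lower in 14 of 16 in the fit without it, median -0.16), and the ratio differed by -0.24 in Dnmt3a KO and -0.20 in Dnmt3b KO over 2 shared numbers, with no test. DESeq2 called 1 chromosome 17 neighbour in Dnmt3a KO (0 by edgeR) and 2 in Dnmt3b KO (1 by edgeR). Over all genes the replicate block called 1428 in Dnmt1 KO against 2652, 1 in Dnmt3a KO against 41 and 6 in Dnmt3b KO against 341, thinning each library to the smallest called 1731 in Dnmt1 KO, and DESeq2 called 117 in Dnmt3a KO. With each library thinned to the smallest, Airn passed the low-count filter in 4 classes of Dnmt1 KO (3 called), not in Immune-like cells, and in 13 classes each of Dnmt3a KO (18 unthinned) and Dnmt3b KO (16 unthinned).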
